A study of Mus musculus with 6 samples.

Results

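The genes described are 10 members of the interleukin 1 (IL-1) family of cytokines and its receptors, found by symbol among the 36706 genes of each table. They comprise the agonists Il1a, Il1b, Il18 and Il33, the signalling receptor chains Il1r1, Il1rap and Il1rl1, and the inhibitors Il1rn, Il1r2 and Il18bp. Polyadenylated RNA was sequenced from dendritic cells grown from wild-type mouse bone marrow with 20 ng/mL GM-CSF. Cells of every library were exposed to interferon gamma (IFN-γ), 3 libraries with nothing further named and 3 with added 4-octyl itaconate (4-OI), an itaconate ester that enters cells. The titles name the cells as macrophages, whereas the cell type label and the culture protocol name dendritic cells. No dose, duration, animal or culture is given for the replicates, so a p-value here reflects only how much these libraries vary, and that variation may be technical. Of the 10 genes, 9 had enough counts to be tested, and Il33 did not.

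IL-1α and IL-1β bind the receptor encoded by Il1r1, which signals only once the accessory chain encoded by Il1rap has joined it. Cells restrain this signal in several ways. The receptor antagonist encoded by Il1rn occupies the receptor without recruiting the accessory chain, and the decoy receptor encoded by Il1r2 captures IL-1 without signalling. IL-18 is neutralised by the binding protein encoded by Il18bp. IL-33 acts through ST2, the product of Il1rl1, with the same accessory chain. IL-1β and IL-18 are made as precursors that caspase-1 cleaves inside inflammasomes, so the mRNA alone does not give the amount of active cytokine.

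Among the 9 tested genes, 3 were higher and 4 lower with 4-OI, and those 3 were all agonists. The remaining agonist gene, Il33, was not tested and went the other way, with 21 counts under IFN-γ and 1 with 4-OI. Il1a was 1.98-fold, Il18 1.47-fold and Il1b 1.36-fold higher. The decoy receptor gene Il1r2 was 2.39-fold lower, the ST2 gene Il1rl1 4.76-fold, the accessory chain gene Il1rap 1.41-fold and the antagonist gene Il1rn 1.21-fold. Il1r1 and Il18bp did not pass the test (edgeR quasi-likelihood test, Benjamini-Hochberg adjusted p = 0.854 and 0.877). Of all 14011 tested genes, 22.7% were higher, 25.4% lower and 48.1% either. The groups did not overlap in 7 of the 9 members, 3 higher and 4 lower, against 59.5% of all tested genes, 28.9% higher and 30.6% lower. The median log2 fold change was -0.04 over the 9 members and -0.01 over all tested genes.

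**Figure D1:**
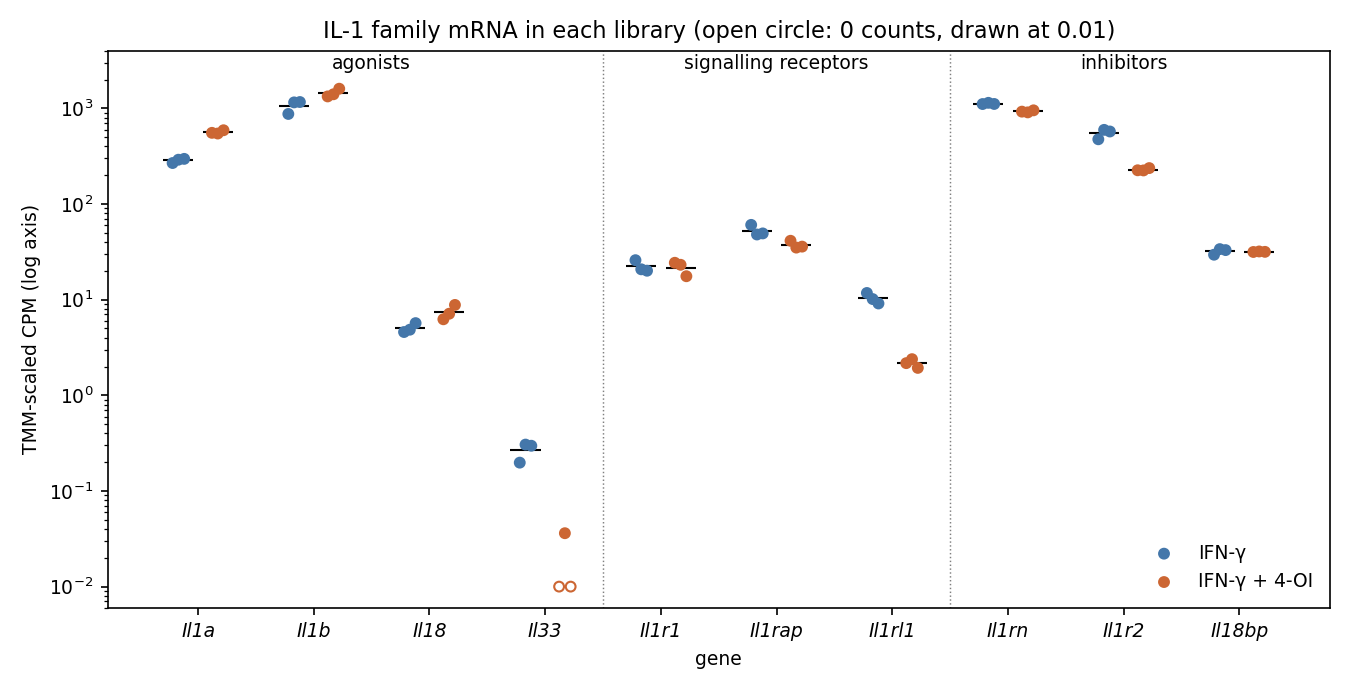
TMM-scaled CPM (log axis) of the 10 genes in each library, with 3 points per group, a line at the group mean (none for Il33 with 4-OI), and agonists, signalling receptors and inhibitors side by side. Open circles stand for 0 counts. Il1a, Il1b and Il18 lie higher with 4-OI in every library, Il1r2 and Il1rl1 lower, and Il1r1 and Il18bp overlap between groups.

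The libraries held 19656368 to 29244717 counts. Treatment separated the libraries along a first principal component with 79.5% of the variance. On the second, with 10.7%, IFN-γ replicate 1 stood at 32.0 against -19.1 and -16.8, and 4-OI replicate 3 at -14.4 against 12.4 and 5.84. Scaling by total counts alone moved the median log2 fold change of all tested genes to -0.27, so levels here are CPM, counts relative to library depth after TMM scaling. Markers of conventional dendritic cells were present, with a summed level of 7067 to 8477 CPM with IFN-γ and 5778 to 6621 with 4-OI, 9 of 13 tested markers lower and 1 higher. Most of that sum was Cd74, H2-Aa and H2-Ab1, with IFN-γ means of 3007, 2032 and 1304 CPM. Flt3, Zbtb46 and Clec9a had IFN-γ means of only 16.2, 15.5 and 9.53 CPM. Flt3 and Zbtb46 were lower with 4-OI, while Clec9a was the 1 marker called higher. Its mean with 4-OI was 35.6 CPM, 3.73-fold higher (edgeR adjusted p = 7.88e-06). Cd209a, of the same list, had at most 3 counts in any library. Macrophage markers were present too, at a summed 2962 to 3114 CPM with IFN-γ and 4199 to 4269 with 4-OI, with 3 of 11 higher, among them Adgre1 (874 to 1333 CPM), and 2 lower. Of 8 monocyte markers 6 were lower, with Ccr2 7.92-fold lower, and their sum was 5821 to 7179 CPM and then 5273 to 6390. Most of that sum was Chil3, with means of 5081 and 5235 CPM, which was not called. For these marker counts the shares of all tested genes were 22.7% higher and 25.4% lower. Since these are bulk samples, fewer cells of a type and less RNA per cell cannot be told apart.

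Promoter sequences are shown for the 3 agonist genes that were higher and for Il1rl1, which had the largest fall of the tested members. They are the 250 bases before each start listed by RefSeq on GRCm38.p6, read 5′ to 3′ on the gene's strand. Il1a lies at chr2:129309973-129310222, minus strand, Il1b at chr2:129371140-129371389, minus strand, and Il18 at chr9:50554450-50554699, plus strand. Il1rl1 has 2 listed starts, with windows at chr1:40429320-40429569 and chr1:40439379-40439628, both on the plus strand. The gene counts do not separate transcripts from these starts.
Il1a: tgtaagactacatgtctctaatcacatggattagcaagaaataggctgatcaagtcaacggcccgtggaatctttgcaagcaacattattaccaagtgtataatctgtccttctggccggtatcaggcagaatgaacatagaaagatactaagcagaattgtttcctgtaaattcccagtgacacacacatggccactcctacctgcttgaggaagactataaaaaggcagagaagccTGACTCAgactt
Il1b: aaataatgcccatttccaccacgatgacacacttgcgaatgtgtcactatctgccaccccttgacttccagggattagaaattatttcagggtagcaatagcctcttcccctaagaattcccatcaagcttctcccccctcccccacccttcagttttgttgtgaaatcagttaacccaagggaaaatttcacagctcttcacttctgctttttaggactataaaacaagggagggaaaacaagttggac
Il18: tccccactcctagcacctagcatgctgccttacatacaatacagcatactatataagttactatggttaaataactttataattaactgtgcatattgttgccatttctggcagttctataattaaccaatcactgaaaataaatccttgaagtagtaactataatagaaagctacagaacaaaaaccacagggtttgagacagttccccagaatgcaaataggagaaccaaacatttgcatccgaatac
Il1rl1 first start: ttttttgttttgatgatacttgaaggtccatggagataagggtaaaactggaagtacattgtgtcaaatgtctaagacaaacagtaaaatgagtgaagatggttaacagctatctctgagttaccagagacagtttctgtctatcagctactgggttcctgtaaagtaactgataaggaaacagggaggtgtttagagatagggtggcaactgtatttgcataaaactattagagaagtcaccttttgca
Il1rl1 second start: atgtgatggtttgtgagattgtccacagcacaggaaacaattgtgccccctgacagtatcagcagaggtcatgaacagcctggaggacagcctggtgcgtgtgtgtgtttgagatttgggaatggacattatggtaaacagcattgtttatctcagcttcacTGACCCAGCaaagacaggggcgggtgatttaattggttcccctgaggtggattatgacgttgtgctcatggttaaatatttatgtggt
Capitals mark every match, on either strand, to 3 motifs searched. These were GGG, 5 unspecified bases and CC for NF-κB, TGANNNNGC for the antioxidant response element that NRF2 binds, and TGANTCA for AP-1. Of all 32851 promoter windows of this length, 45.8% held the first, 35.2% the second and 6.75% the third. Il1a held an AP-1 match whose first base is at -12 from the start, the second start of Il1rl1 an antioxidant response element match at -88, and Il1b and Il18 held none. Members not shown held matches too. Il1rn had an AP-1 match at -141 from its first start. Antioxidant response element matches lay in Il1r2, at -116, and at both starts of Il1r1. NF-κB matches lay in Il1rap, Il1rn and Il1r1, while Il33 and Il18bp held no match. A match is a description of letters in this window and shows no binding.

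The 3 tested agonist genes were higher in every 4-OI library than in any IFN-γ library. Il1a, which encodes IL-1α, a cytokine active as precursor and held in the nucleus or on the membrane, stood at 268, 290.3 and 296 CPM in the IFN-γ libraries, against 555, 545 and 590.1 CPM in the 4-OI libraries. Its groups were far apart relative to their spread (285 ± 14.9 and 563 ± 23.6 CPM, mean ± SD over n = 3), and edgeR gave a log2 fold change of 0.98 with an SE of 0.09 (adjusted p = 5.46e-05). The call held under all 15 alternative settings, with log2 fold changes of 0.72 to 1.03. The gene lies on chromosome 2, 129141530 to 129151892, minus strand, in the coordinates of the deposited tables, which do not match the mm10 (GRCm38) positions used for the promoters. It shares 11.2% of its exon bases with Gm14023 on the opposite strand, which stood at 3.43 and 3.11 CPM.

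Il1b, which encodes IL-1β, lies on chromosome 2 at 129206490 to 129213059, minus strand, and both genes fall within 71.5 kb. It stood at 874, 1154 and 1164 CPM in the IFN-γ libraries, against 1333, 1403 and 1604 CPM in the 4-OI libraries. IFN-γ replicate 1 was the lowest and 4-OI replicate 3 the highest, the 2 libraries that stood apart. The rise was 1.36-fold (edgeR log2 fold change 0.44 with an SE of 0.14, adjusted p = 0.0307). Without those 2 libraries the log2 fold change was smaller, at 0.24 (edgeR adjusted p = 5.08e-05). They were left out for standing apart, which narrows the spread within groups, so the smaller p is no firmer support for the rise. The rise did not pass without any 1 of the 3 libraries with 4-OI (edgeR adjusted p = 0.05004 to 0.103), nor with total-count scaling (log2 fold change 0.18, edgeR adjusted p = 0.206).

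Il18, whose product drives IFN-γ secretion by lymphocytes, had 4.59, 4.85 and 5.68 CPM in the IFN-γ libraries, against 6.24, 7.12 and 8.81 CPM in the 4-OI libraries (edgeR log2 fold change 0.56 with an SE of 0.16, adjusted p = 0.0200). The groups did not overlap, but the call was lost without IFN-γ replicate 2 (edgeR adjusted p = 0.0529), without 4-OI replicate 3 (edgeR adjusted p = 0.0626) and with total-count scaling (log2 fold change 0.29, edgeR adjusted p = 0.116). The gene spans 50466000 to 50493141 of chromosome 9, plus strand.

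Il33, an alarmin held in the nuclei of stromal and epithelial cells, was at the edge of detection. Its counts were 5, 9 and 7 in the IFN-γ libraries, against 0, 1 and 0 in the 4-OI libraries. Pooled and scaled, the 21 counts against 1 count make it 18.9-fold lower with 4-OI, with an exact 95% interval of 3.03 to 780 that covers counting error only. Markers of stromal and endothelial cells summed to 94.3 to 133 CPM with IFN-γ and 42.2 to 46.0 CPM with 4-OI. Nearly all of that sum was Pecam1, an adhesion molecule that leukocytes also carry, with means of 90.2 and 42.2 CPM. Of the 4 tested markers Pecam1 and Pdgfrb were lower, while Pdgfra (0.387 and 0.750 CPM) and Cdh5 (0.4833 and 0.4998 CPM) were not called. Col1a1 had 254 counts in IFN-γ replicate 1, 7 and 5 in the other IFN-γ libraries and 1, 0 and 2 with 4-OI, while IFN-γ replicate 1 had the fewest Il33 counts of its group. The part of these cells in the Il33 counts was not tested.

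Of the signalling receptor chains, Il1rl1 changed most. It stood at 11.7, 10.1 and 9.12 CPM in the IFN-γ libraries, against 2.17, 2.39 and 1.93 CPM in the 4-OI libraries (edgeR log2 fold change -2.25 with an SE of 0.15, adjusted p = 1.48e-05). The fall held under all 15 alternatives, with log2 fold changes of -2.51 to -2.07. Mast cells and basophils are known for high ST2, and all 7 tested markers of them were lower, against 25.4% of all tested genes. The median log2 fold change of these markers was -1.58. Their summed level was 345 to 378 CPM with IFN-γ and 106 to 114 CPM with 4-OI. Hdc, the histamine-forming enzyme, went from 166 ± 12.2 to 41.3 ± 0.960 CPM (SD, n = 3). Other defining markers were near 0 in both groups: Fcer1a had at most 16 counts, Tpsb2 at most 3 and Cma1 at most 1. The part of these cells in the fall of Il1rl1 was not tested.

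Il1rap, the accessory chain shared by the receptors of IL-1, IL-33 and IL-36, stood at 60.5, 48.0 and 49.3 CPM in the IFN-γ libraries, against 41.3, 35.0 and 35.8 CPM in the 4-OI libraries. The groups did not overlap (edgeR log2 fold change -0.49 with an SE of 0.12, adjusted p = 0.00989), and the call was lost without 4-OI replicate 2 (edgeR adjusted p = 0.0511). The count covers all transcripts of the gene and does not separate the membrane-bound chain from its soluble form.

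Il1r1, the signalling receptor of IL-1 itself, had overlapping values, with 25.9, 20.8 and 20.1 CPM under IFN-γ and 24.3, 23.1 and 17.6 CPM under 4-OI. Its log2 fold change was -0.04 ± 0.15 (SE). Without IFN-γ replicate 1 and 4-OI replicate 3, which stood apart on the second principal component, it was 0.21 (edgeR adjusted p = 0.0110). Leaving out libraries because they stand apart narrows the spread within groups, so that p cannot be set beside the p from all libraries.

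**Figure D2:**
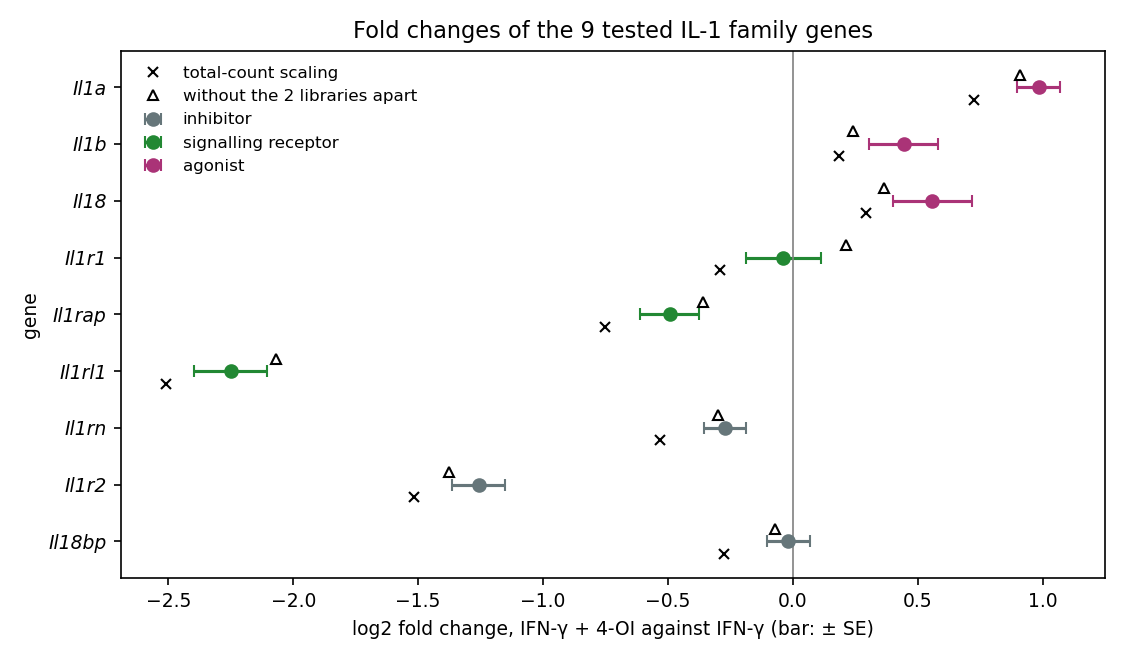
Log2 fold changes of the 9 tested genes with 4-OI, coloured by role, with bars of 1 SE. Crosses give the values with total-count scaling and triangles those without IFN-γ replicate 1 and 4-OI replicate 3. Il1a, Il1b and Il18 lie right of 0, Il1rl1 and Il1r2 at -2.25 and -1.26, and Il1r1 changes side between settings.

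Among the inhibitors, the decoy receptor gene Il1r2 changed most. It stood at 475, 596 and 573 CPM in the IFN-γ libraries, against 225, 224 and 237 CPM in the 4-OI libraries (edgeR log2 fold change -1.26 with an SE of 0.11, adjusted p = 4.84e-05). Every 4-OI library lay below every IFN-γ library, and the call held under all 15 alternatives (log2 fold change -1.52 to -1.18). Il1r2 is abundant in neutrophils. Of 12 tested neutrophil markers 7 were lower and 2 higher, against 25.4% and 22.7% of all tested genes. Their summed level was 3637 to 4356 CPM with IFN-γ and 3970 to 4656 CPM with 4-OI. The largest part of that sum was Mmp8, with means of 1951 and 1965 CPM, which was not called. Cxcr2 went from 43.8 ± 0.355 to 10.7 ± 1.61 CPM (SD, n = 3), while Ly6g and S100a8 were the 2 that rose. The part of neutrophils in the fall of Il1r2 was not tested.

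Il1rn stood at 1109, 1142 and 1111 CPM in the IFN-γ libraries, against 924, 907 and 953 CPM in the 4-OI libraries. The groups were narrow and did not overlap, and the difference was small (edgeR log2 fold change -0.27 with an SE of 0.08, adjusted p = 0.0283). It did not pass with no filter on low counts (edgeR adjusted p = 0.119), nor without IFN-γ replicate 2, IFN-γ replicate 3, 4-OI replicate 1 or 4-OI replicate 2 (edgeR adjusted p = 0.104 to 0.127). Secreted and intracellular forms of the antagonist come from the same gene and were counted together.

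Il18bp, a gene known to respond to IFN-γ, stood at 29.5, 33.8 and 33.0 CPM without 4-OI and at 31.5, 31.9 and 31.6 CPM with it. Its log2 fold change was -0.02 ± 0.09 (SE), and -0.27 with total-count scaling (edgeR adjusted p = 0.0337), about the shift of all genes under that scaling. It shares 29.4% of its exon bases with Rnf121 on the same strand, and how such reads were assigned is not given in the sources used here.

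To set each inhibitor against its partner without any scaling of libraries, the ratio of their counts was taken in each library, per exon base so that levels of the 2 genes can be compared. All 4 ratios were lower in every 4-OI library than in any IFN-γ library. Taken singly, 59.5% of all tested genes did not overlap between groups, and the share over other pairs of genes was not tested. The ratios use the same counts as the member results above and are not 4 separate results. Of them, 2 share Il1rn, and in the other 2 a partner, Il1r1 or Il18bp, was not called. With 3 against 3 libraries the exact two-sided permutation test cannot go below p = 0.10, which each ratio reached (0.10 after adjustment over the 4). Il1rn to Il1b was 0.854, 0.666 and 0.642 in the IFN-γ libraries, against 0.467, 0.435 and 0.400 in the 4-OI libraries, a fall by 0.72 on the log2 scale. Il1rn to Il1a was 2.91, 2.77 and 2.64 in the IFN-γ libraries, against 1.17, 1.17 and 1.14 in the 4-OI libraries, a change of -1.26 on the log2 scale. Per exon base, the antagonist transcript thus stood above that of Il1a in all 6 libraries and below that of Il1b in all 6. The order against Il1b rests in part on the exon lengths, 2805 bases for Il1rn and 1888 for Il1b. By counts alone Il1rn exceeded Il1b in IFN-γ replicate 1 (28049 against 22098) and lay below it in the other libraries.

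The decoy receptor to signalling receptor ratio, Il1r2 to Il1r1, was 41.9, 65.5 and 65.2 in the IFN-γ libraries, against 21.2, 22.1 and 30.8 in the 4-OI libraries, 2.31-fold lower. On the log2 scale its spread was the widest of the 4 in both groups (SD 0.37 and 0.30). Il1r2 was lowest and Il1r1 highest in IFN-γ replicate 1, and Il1r1 was lowest in 4-OI replicate 3. Il18bp to Il18 was 3.62, 3.91 and 3.26 in the IFN-γ libraries, against 2.84, 2.52 and 2.02 in the 4-OI libraries, 1.47-fold lower, with Il18bp itself not called.

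**Figure D3:**
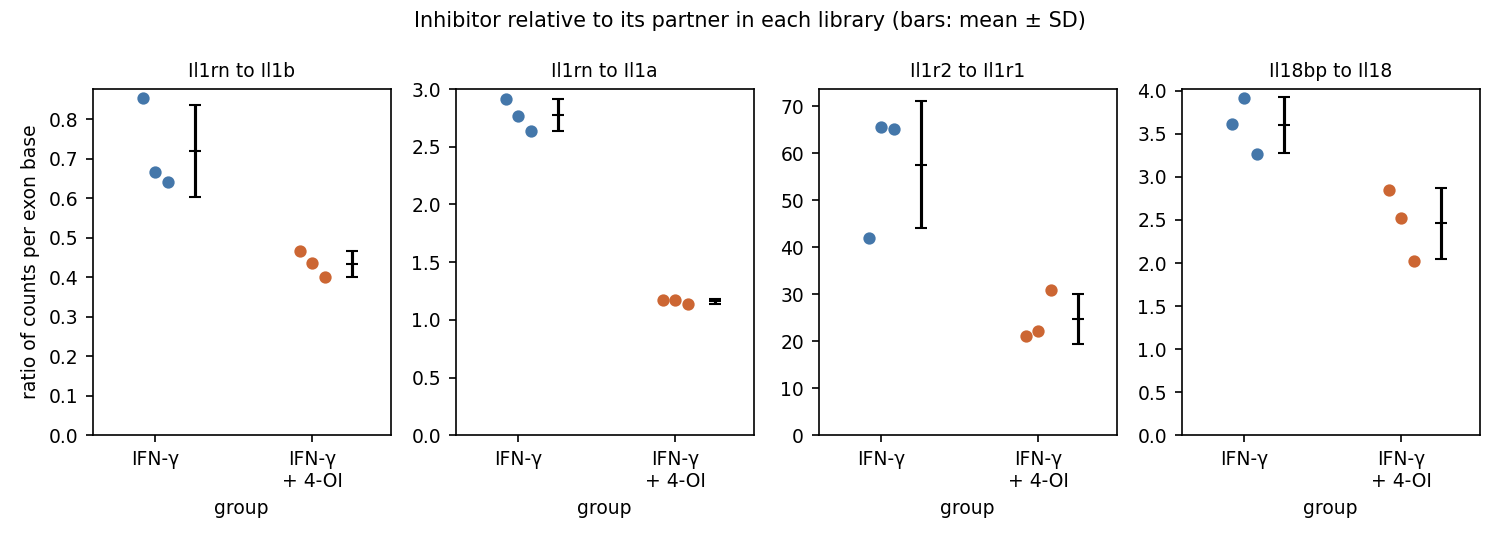
Ratio of counts per exon base of each inhibitor to its partner in each of the 6 libraries, with bars of mean ± SD beside the points and axes from 0. In each panel the 3 libraries with 4-OI lie below the 3 with IFN-γ alone, and Il1rn to Il1a falls from a mean of 2.77 to 1.16.

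Levels per kilobase of exon, the scale on which genes can be compared, put Il1b first in both groups, at 564 ± 87.4 CPM per kb with IFN-γ and 766 ± 74.6 with 4-OI (SD, n = 3). It took place 128 and then 116 among all genes. Il1rn followed at 399.5 ± 6.59 and 331 ± 8.28 CPM per kb. Il1r2 and Il1a exchanged the next places: Il1r2 stood above Il1a with IFN-γ, at 204 ± 23.9 against 144 ± 7.55 CPM per kb, and below it with 4-OI, at 85.2 ± 2.72 against 285 ± 12.0 CPM per kb. In neither group did the libraries of these neighbours overlap. The other members stood lower, led by Il18bp at 6.96 and 6.87 CPM per kb, and Il1rap and Il1r1 overlapped with IFN-γ, as did Il1r1, Il18 and Il1rap with 4-OI. Exon lengths are those of all transcripts of a gene merged, which understates the level of a gene with long alternative exons such as Il1rap, with 13345 bases.

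On chromosome 1 the receptor genes lie side by side over 467 kb, from Il1r2 at 40123872 to the end of Il18rap at 40590867, all on the plus strand. Of the 6 receptor genes there, 5 were lower with 4-OI and Il1r1 did not pass, beside 25.4% of all tested genes lower and 22.7% higher. The 3 at the far end had the largest falls. Next to Il1rl1 lie Il18r1 and Il18rap, which encode the chains of the IL-18 receptor. Il18r1 went from 57.2 ± 5.24 to 14.1 ± 1.20 CPM (SD, n = 3; edgeR adjusted p = 6.00e-06), and Il18rap from 115 ± 14.2 to 31.1 ± 3.10 CPM (edgeR adjusted p = 1.31e-05). Il1rl2, the receptor chain for IL-36, was 1.35-fold lower (edgeR adjusted p = 0.0151), a call lost without 4-OI replicate 2 or 4-OI replicate 3 (edgeR adjusted p = 0.0515 and 0.0546). Mast cell and basophil markers fell beside these genes too, and of 5 tested markers of T cells and innate lymphoid cells 2 were lower and 1 higher, with Cd3e at no more than 5 counts.

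**Figure D4:**
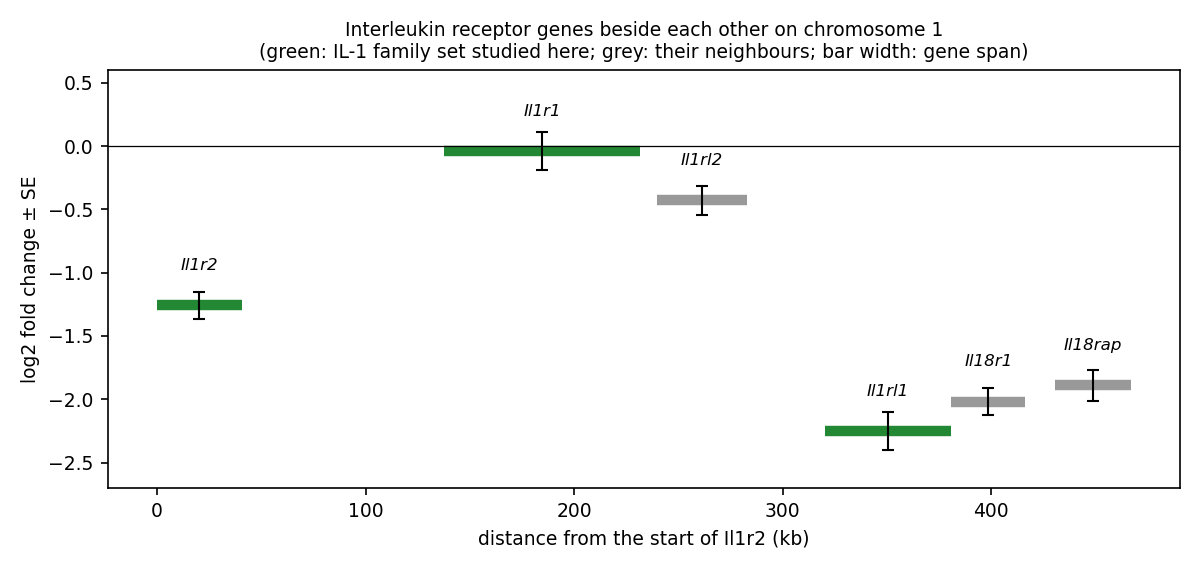
Log2 fold change with 4-OI (± SE) of the 6 interleukin receptor genes of the chromosome 1 cluster against their distance in kb from the start of Il1r2, with each horizontal bar spanning a gene. Il1rl1, Il18r1 and Il18rap lie between -2.25 and -1.89, Il1rl2 at -0.43 and Il1r1 near 0.

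Of the 11 other genes of the family and its receptors, matched through older symbols where needed, 6 were tested. Il36g, listed under its older symbol Il1f9 and encoding the agonist IL-36γ, had the largest rise among the tested genes of the family. It stood at 65.3, 72.6 and 77.7 CPM in the IFN-γ libraries, against 388, 391 and 394 CPM in the 4-OI libraries, 5.44-fold higher (edgeR log2 fold change 2.44 with an SE of 0.09, adjusted p = 1.96e-06). It lies on chromosome 2 at 24076488 to 24083579, as does Il1rn at 24226872 to 24241503. Il36rn, the antagonist of that receptor, had 1 count in all 6 libraries together, and Il1f10, Il1rapl1 and Il1rapl2 had none, with 3 counts equal to 0.102 to 0.163 TMM-scaled CPM at these depths. For Il36a the log2 fold change was -0.28 (edgeR adjusted p = 0.479). Sigirr, an inhibitory receptor of the family, was lower, with 5.89, 8.21 and 7.38 CPM in the IFN-γ libraries, against 3.85, 3.07 and 3.87 CPM in the 4-OI libraries (edgeR adjusted p = 0.00164).

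Of 20 genes of inflammasomes and of IL-1 release, 6 rose and 9 fell, against 22.7% and 25.4% of all tested genes, and the median log2 fold change was -0.20. Under total-count scaling the numbers were 3 higher and 11 lower, beside 1719 and 5447 of all genes. Casp1, the protease that matures IL-1β and IL-18, was 1.73-fold higher, from 63.4 ± 8.52 to 110 ± 7.22 CPM (SD, n = 3; edgeR adjusted p = 8.52e-04). Panx1, a membrane channel, was 3.26-fold higher, and Ninj1, which ruptures the membrane of dying cells, 2.19-fold. The adaptor gene Pycard fell 2.45-fold, the pyrin gene Mefv 1.97-fold, Gsdmd, the gene of the pore through which IL-1β leaves, 1.74-fold, and the sensor gene Nlrp3 1.36-fold (edgeR adjusted p = 0.0102).

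Downstream of the receptor, 6 of 20 signalling genes were higher and 2 lower (22.7% and 25.4% of all tested genes), with a median log2 fold change of 0.06. For the adaptor gene Myd88 the log2 fold change was -0.21 (edgeR adjusted p = 0.0999), and it passed as lower without IFN-γ replicate 1 (edgeR adjusted p = 0.00501) and with total-count scaling (edgeR adjusted p = 0.00428). Irak3, the inhibitory kinase of the IRAK group, was 1.34-fold lower, from 292 ± 20.9 to 218 ± 8.12 CPM (edgeR adjusted p = 0.00442), and Ikbkb 1.26-fold lower. Sqstm1, which encodes the scaffold p62, was 5.42-fold higher, Ikbkg, the regulatory subunit of the IκB kinase, 3.16-fold, and Peli3 3.09-fold, the last from 2.74 CPM. Without IFN-γ replicate 1 and 4-OI replicate 3, 10 of these 20 genes were higher and 5 lower. Calls over all genes rose too in that setting, to 4601 higher and 4695 lower, against 3181 and 3555 with all libraries. With total-count scaling, 3 of the 20 were higher and 9 lower, beside 1719 and 5447 of all genes.

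Of 16 NF-κB subunit and feedback genes, 2 rose and 6 fell, beside the same 22.7% and 25.4%, with a median log2 fold change of 0.02. With IFN-γ replicate 1 and 4-OI replicate 3 left out, 5 were higher and 7 lower, beside 4601 and 4695 of all genes. Only 1 of the 16 was higher with total-count scaling, without 4-OI replicate 2 or without 4-OI replicate 3. Nfkb1 was 1.68-fold, Tnfaip3 1.51-fold and Cyld, a deubiquitinase, 1.48-fold lower. Otud7b, another deubiquitinase, was 1.59-fold higher, and Nfkbib 1.40-fold (edgeR adjusted p = 0.0314). Nfkbib did not pass under total-count scaling (edgeR adjusted p = 0.191), nor without 4-OI replicate 2 or 4-OI replicate 3 (edgeR adjusted p = 0.0596 and 0.111). Nfkbia, the gene of IκBα, was named after its values were seen and overlapped between groups, with 328 to 465 CPM and 361 to 473 CPM.

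**Figure D5:**
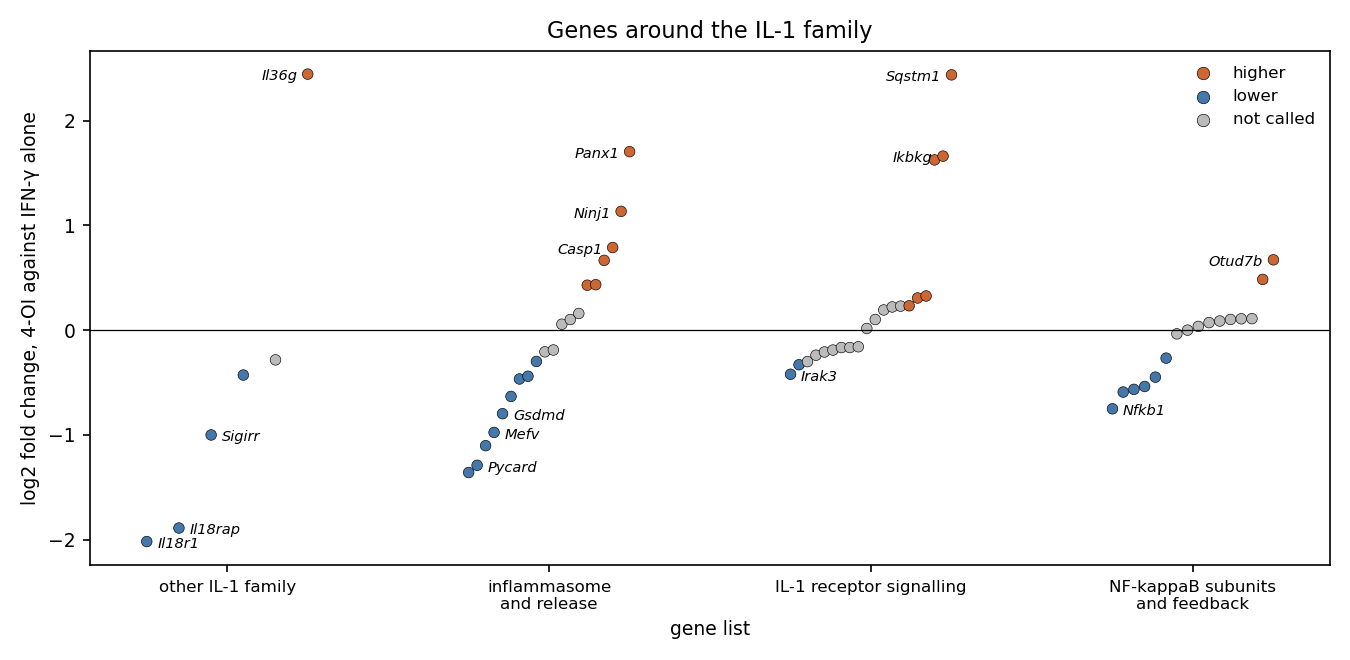
Log2 fold change with 4-OI of each tested gene in 4 lists around the IL-1 family, coloured by whether it was called higher, lower or neither at an adjusted p of 0.05. Each list holds genes on both sides of 0, with Il36g at 2.44 and Sqstm1 at 2.44 highest and Il18r1 at -2.02 lowest.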

How the data were processed

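The authors deposited 1 table per library with counts, TPM and FPKM per gene, per the file headers. HISAT2 and mm10 appear in the submitters' processing notes. How reads were counted, with which strand handling and annotation release, was not given in the sources used here. Gene coordinates are printed as deposited. They do not match GRCm38, the assembly also called mm10, so they conflict with those notes, and the assembly they belong to was not established. Promoter coordinates are those of RefSeq on GRCm38.p6. The deposited TPM matched the counts divided by exon length for 100% of values, to a relative difference of 1e-06. The deposited FPKM carry the same information and were not tested.

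Counts were used as deposited with edgeR 4.0.16 in R 4.3.3: filterByExpr with a minimum count of 10, TMM factors, the robust quasi-likelihood test and Benjamini-Hochberg adjustment over all 14011 genes tested, at 0.05. An SE is the log2 fold change divided by the square root of its F. Log2 differences of ratios used the counts with 0.5 added, and the ratios printed per library did not. The fit was tested on simulated counts with 200 of 13772 genes changed. It recovered 46.9% of 1.5-fold, 80% of 2-fold and 98.4% of 4-fold changes, so a small change can fail to pass. Alternatives were RLE, upper quartile and total-count scaling, 2 other filters, limma-voom (limma 3.58.1), DESeq2 1.42.0, a replicate block and left-out libraries. No pair of replicates agreed within sampling noise, with at least 4.31 chi-square per gene.

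Genes named were all 10 members, the 3 smallest adjusted p per direction of each pathway list, Casp1, Nlrp3, Pycard, Gsdmd, Myd88, Irak3, Sigirr and the receptor genes beside the members on chromosome 1. Other genes, such as cell markers, were chosen after their values were seen. The members, lists and rules were chosen with earlier results of these data known. Tpsab1 and Trac are not analysed here.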

Additional observations from a re-analysis of the deposited data

How the results depend on the processing

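With total-count scaling 1719 genes were higher and 5447 lower, against 3181 and 3555, and 1 member was higher and 5 lower. Leaving out single libraries gave 2460 to 3791 genes higher and 2815 to 4044 lower, with 1 to 3 members higher and 2 to 4 lower. The fewest members were called higher without 4-OI replicate 3 and lower without 4-OI replicate 2. The log2 ratios then ranged from -0.80 to -0.59 for Il1rn to Il1b, -1.29 to -1.22 for Il1rn to Il1a, -1.42 to -1.10 for Il1r2 to Il1r1 and -0.67 to -0.42 for Il18bp to Il18. With both libraries that stood apart left out (IFN-γ replicate 1, 4-OI replicate 3), Il1rn to Il1b was -0.54, Il1r2 to Il1r1 -1.59 and Il1r1 turned to 0.21, and the cause was not tested. That setting called 4601 genes higher and 4695 lower. The replicate block gave 3588 genes higher and 3925 lower and changed no call of a member. Numbers are not stated to pair libraries, and deviations of same-numbered libraries correlated at 0.26, -0.10 and 0.19, so no pairing was assumed. Il33 had a log2 fold change of -3.82 with no filter on low counts (edgeR adjusted p = 0.00392). Its depth, and that of Il18, limits what these libraries can show.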
